A study of Mus musculus with 12 samples.

Results

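The genes described here are 10 genes of acute phase proteins: the orosomucoid genes Orm1, Orm2 and Orm3, the serum amyloid A genes Saa1, Saa2 and Saa3, the lipocalin gene Lcn2, the serpin gene Serpina3n, the haptoglobin gene Hp and the ceruloplasmin gene Cp. They were found as the probe sets whose only platform gene symbol was 1 of these names, 1 probe set for each gene, and they are 10 of the 30142 genes so named on the array. They were selected on their log2 differences between DES and vehicle in wild-type glands on these same arrays, where the orosomucoid genes differed in the opposite direction to the others. For that reason the wild-type response, and every difference that contains it, is described here with its standard error and without a test. All 10 genes passed the filter on low values, which asked for a level above the array's median on at least 3 arrays and kept 20130 genes. Saa3 passed through the 3 WT_DES arrays alone, so it had to differ there.

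Seminal vesicles were taken at week 10 from C57BL/6 males, and their RNA was hybridized to 12 arrays, 3 in each of 4 groups. The aERKO_DES mice lacked estrogen receptor alpha and had received subcutaneous diethylstilbestrol (DES), a synthetic estrogen, as newborns. The daily dose was 2 µg for each pup from day 1 to day 5. The aERKO_vehicle mice lacked the receptor and had been given the corn oil in which DES was dissolved. The WT_DES mice were wild type and received DES at that dose, and the WT_vehicle mice were wild type and received corn oil. The labels do not describe the aERKO allele, and nothing in them ties the 3 samples within a group to different mice. The p-values therefore reflect only sample-to-sample spread, part or all of which could be technical. The comparisons ask whether these genes differ in the adult gland after neonatal DES, and whether they do so without estrogen receptor alpha.

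Acute phase proteins are secreted proteins whose plasma levels change in inflammation. The liver makes most of them, mainly under interleukin 6, interleukin 1 and glucocorticoids, through the transcription factors STAT3, C/EBP and NF-kB. Many are also made outside the liver, by epithelia, macrophages, neutrophils and adipocytes. Orosomucoids carry small lipophilic molecules in plasma, serum amyloid A proteins bind lipoproteins, lipocalin 2 binds bacterial siderophores, haptoglobin binds free hemoglobin and ceruloplasmin is a copper-carrying ferroxidase.

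In the mouse genome assembly GRCm38.p6, 6 of the 10 genes lie in 2 clusters. Orm1 (chr4:63344556-63348163), Orm3 (chr4:63356069-63359506) and Orm2 (chr4:63362449-63365877) are neighbours on chromosome 4. Saa3 (chr7:46711998-46719615), Saa1 (chr7:46740497-46743181) and Saa2 (chr7:46751833-46754313) are neighbours on chromosome 7. The others are Lcn2 (chr2:32384637-32387739), Cp (chr3:19956933-20009750), Hp (chr8:109575128-109579172) and Serpina3n (chr12:104406646-104414334). The 3 orosomucoid genes are close paralogs, as are Saa1 and Saa2, which the RefSeq gene table lists as synonyms of each other. A probe set of 1 such gene may also bind transcripts of another, so their separate values are uncertain. The same may hold for Serpina3n. Of 8 of its paralogs that were listed, 3 had a probe set with 1 symbol.

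The promoters of 5 of the genes set orosomucoid genes, which were lower in WT_DES, beside genes that were higher there. Each sequence runs from 250 bases before the transcription start to 50 bases after it, 5′ to 3′ on the strand of the gene, and is taken from RefSeq (GRCm38.p6). Capitals mark a match to the C/EBP-type motif TTGCNNAA on either strand. The windows are chr4:63362199-63362498 (plus strand) for Orm2, chr4:63355908-63356207 (plus) for Orm3, chr7:46715627-46715926 (minus) for Saa3, chr2:32387690-32387989 (minus) for Lcn2 and chr12:104406458-104406757 (plus) for Serpina3n.
Orm2: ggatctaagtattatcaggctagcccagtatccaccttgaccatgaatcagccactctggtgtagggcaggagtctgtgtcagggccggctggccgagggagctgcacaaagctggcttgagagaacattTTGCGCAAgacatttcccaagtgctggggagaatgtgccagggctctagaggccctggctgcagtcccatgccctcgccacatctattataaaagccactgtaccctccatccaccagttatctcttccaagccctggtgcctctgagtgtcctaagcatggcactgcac
Orm3: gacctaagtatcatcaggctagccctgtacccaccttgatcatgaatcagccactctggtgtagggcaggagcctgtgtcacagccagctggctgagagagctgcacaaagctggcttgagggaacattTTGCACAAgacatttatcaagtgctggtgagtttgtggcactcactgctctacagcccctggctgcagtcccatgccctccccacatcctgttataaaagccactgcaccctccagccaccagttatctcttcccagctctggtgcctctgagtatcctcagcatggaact
Saa3: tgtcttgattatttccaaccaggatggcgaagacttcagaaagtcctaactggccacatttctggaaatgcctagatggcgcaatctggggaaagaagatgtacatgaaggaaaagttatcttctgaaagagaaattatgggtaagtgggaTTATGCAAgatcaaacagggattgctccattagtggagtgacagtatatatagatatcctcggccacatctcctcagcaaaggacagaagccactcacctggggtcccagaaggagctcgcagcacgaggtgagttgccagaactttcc
Lcn2: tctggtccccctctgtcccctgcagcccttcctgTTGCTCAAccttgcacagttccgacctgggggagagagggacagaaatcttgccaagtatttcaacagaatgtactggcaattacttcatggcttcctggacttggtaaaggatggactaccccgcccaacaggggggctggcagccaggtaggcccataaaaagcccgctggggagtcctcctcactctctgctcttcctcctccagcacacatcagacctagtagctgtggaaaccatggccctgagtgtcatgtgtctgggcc
Serpina3n: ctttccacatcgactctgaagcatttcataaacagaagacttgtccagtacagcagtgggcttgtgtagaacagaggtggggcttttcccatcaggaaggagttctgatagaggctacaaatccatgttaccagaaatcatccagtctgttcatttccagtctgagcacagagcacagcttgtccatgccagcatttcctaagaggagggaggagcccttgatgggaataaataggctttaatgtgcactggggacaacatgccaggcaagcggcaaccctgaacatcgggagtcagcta
Of the 10 genes, 8 had a promoter in the table. Orm1 and Hp had no entry. The Orm2 and Orm3 windows were identical at 86.6% of aligned positions and those of Saa1 and Saa2 at 95.3%, against 49.1% to 54.2% for the other pairs of 7 genes (Cp left out), so related promoters are not independent. The C/EBP-type motif TTGCNNAA was found in 7 of the 8 genes, all but Serpina3n, and in 10.8% of 32851 mouse promoters of the same length. Its first base lay at -120 from the start in Orm2, -121 in Orm3, -99 in Saa3 and -216 in Lcn2. It thus occurred in genes that were lower in WT_DES and in genes that were higher. The STAT-type motif TTCNNNGAA was in 0 of the 8 (8.3% of all promoters) and a broad NF-kB-type motif, GGG and CC with 5 bases of any kind between them, in 5 of 8 (50.8%). The hexamer AGAACA, bound by the glucocorticoid receptor, was in Orm2, Serpina3n and Cp (19.0% of all promoters), and TATAAA in Orm2, Orm3 and Cp (13.6%). Cp had 2 windows, for 2 starts, and was counted where either matched. Its AGAACA match lay in 1 window and its other matches in the other, whereas the shares over all promoters count single windows. Both strands were searched for every motif. A match describes the letters of the window and is not a measured binding site.

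The medians of the arrays ran from 5.95 to 6.14 (log2), and arrays of 1 group correlated at 0.982 to 0.996 over the genes tested. The 3 WT_DES arrays stood apart, with correlations of 0.867 to 0.919 with arrays of other groups, against 0.983 to 0.997 among the 9 others. Esr1, the gene of estrogen receptor alpha, had log2 levels of 6.81 to 7.09 on the aERKO arrays and 7.55 to 7.80 on the WT arrays, without overlap. Its means of 6.90 in aERKO_DES and 6.99 in aERKO_vehicle lay above the background control means there (5.28 and 5.33). The Esr1 signal was thus lower in aERKO and not absent. Seminal vesicle secretory markers summed to 16.40 to 16.82 (log2 of the summed linear levels) over all 12 arrays, and 0 of the 7 were at or below the background controls in any group. Control RNAs added at hybridization read 0.36 log2 units lower in WT_DES than in WT_vehicle (-0.36). Shifting the arrays to these controls moved the median difference of all genes in WT from -0.05 to 0.31, and the sign of small differences can depend on that shift. Levels below are log2 RMA values and are compared within a gene, not between genes.

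The orosomucoid transcripts were lower in WT glands after neonatal DES and did not differ detectably in aERKO glands. In WT_DES the decrease of the group means was 1.99-fold for Orm1, 2.27-fold for Orm2 and 3.12-fold for Orm3. The 7 other genes were higher in WT_DES. For the 6 of them with a measured WT_vehicle level the increase lay between 1.67-fold for Saa2 and 22.6-fold for Serpina3n. For all 10 genes the WT_DES and WT_vehicle arrays did not overlap, in the contrast on which they were selected. Over all 20130 genes tested, limma called 20.7% higher and 23.3% lower in WT_DES at an adjusted p below 0.05. The groups lay apart with WT_DES higher for 25.8% of genes and with WT_DES lower for 35.1%.

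**Figure D1:**
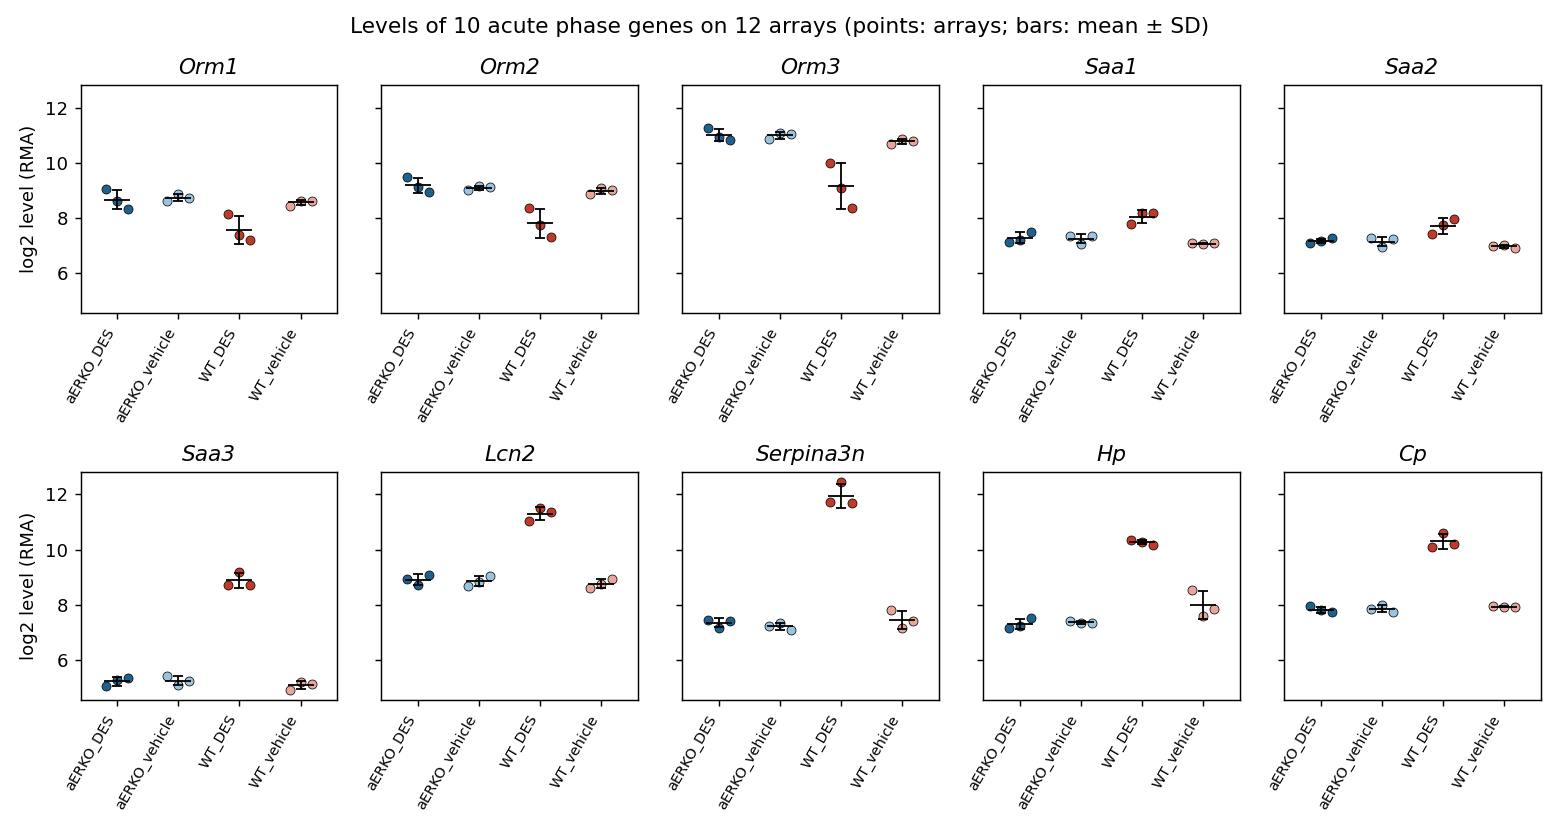
Log2 RMA level of each of the 10 acute phase genes (y axis) in the 4 groups (x axis). Points are arrays, 3 per group, and bars give the mean ± SD. The WT_DES arrays lie below all others for the 3 orosomucoid genes and above all others for the 7 other genes.

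Orm3 had log2 levels of 10.00, 9.10 and 8.34 on WT_DES arrays 1 to 3, against 10.69, 10.87 and 10.80 on WT_vehicle arrays. Every WT_DES array was lower than every WT_vehicle array, and the WT_DES arrays spread widely. The mean was 9.15 ± 0.83 in WT_DES and 10.79 ± 0.09 in WT_vehicle (SD, n = 3 each), a log2 difference of -1.64 ± 0.29 (SE). Orm2 had 8.36, 7.75 and 7.30 in WT_DES, against 8.86, 9.08 and 9.03 in WT_vehicle. Its difference was -1.19 ± 0.21, and its WT_DES arrays fell in the same order as those of Orm3. Orm1 had 8.13, 7.37 and 7.20 in WT_DES, against 8.45, 8.62 and 8.62 in WT_vehicle, a difference of -0.995 ± 0.21. The 3 orosomucoid genes thus had the same order of WT_DES arrays, and the part of shared probe binding in this was not tested. Shifted to the hybridization controls, their differences were -0.64 for Orm1, -0.83 for Orm2 and -1.28 for Orm3, so the direction held. In bulk tissue, fewer cells of a type and less RNA per cell cannot be told apart.

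The orosomucoid genes were among the most variable of all genes within WT_DES. The SD over the 3 WT_DES arrays was 0.83 for Orm3, 0.53 for Orm2 and 0.50 for Orm1, whereas the median over all genes tested was 0.12. Only 0.253% of the genes tested had a larger SD than Orm3 in that group, 0.795% a larger one than Orm2 and 0.939% a larger one than Orm1. WT_DES array 1 was the highest of the group for all 3 genes, lying 0.56 above the group mean for Orm1, 0.56 for Orm2 and 0.85 for Orm3, and array 3 was the lowest for all 3. On WT_DES array 1 prostate and coagulating gland markers summed to 14.32, against 13.70 on array 2 and 13.79 on array 3, and seminal vesicle secretory markers to 16.60, 16.49 and 16.40 on arrays 1 to 3. The part of these marker levels in the orosomucoid values was not tested. Leaving out WT_DES array 1 gave an Orm3 difference of -2.07, and leaving out array 3 gave -1.24.

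**Figure D2:**
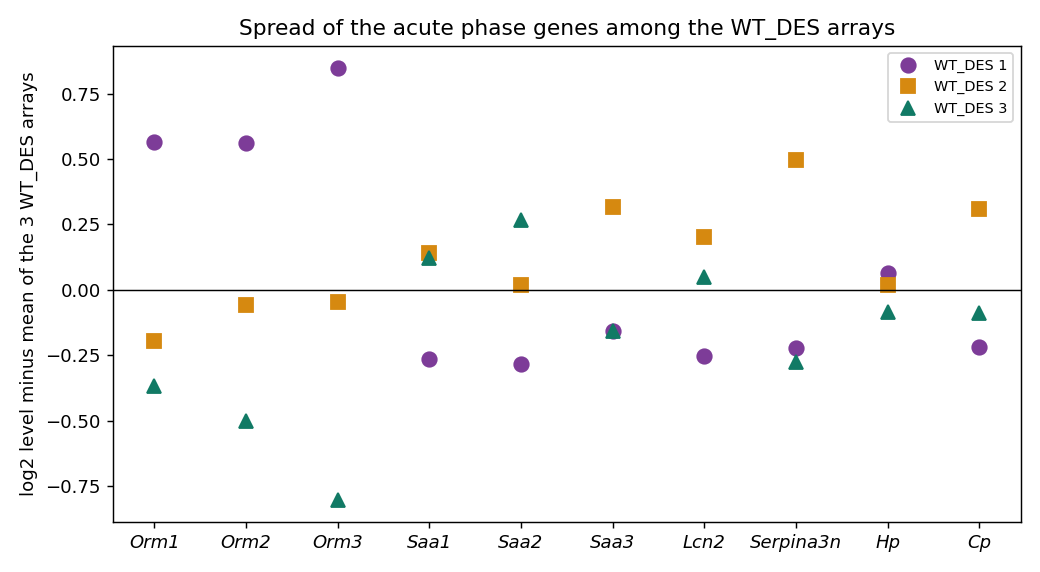
Log2 level on each WT_DES array minus the mean of the 3 WT_DES arrays (y axis) for the 10 acute phase genes (x axis), with a symbol for each array. Array 1 is highest and array 3 lowest for Orm1, Orm2 and Orm3, whereas Saa3, Lcn2, Serpina3n and Cp are highest on array 2.

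Among the serum amyloid A genes Saa3, which macrophages, adipocytes and epithelia express outside the liver in mice, differed most. Its log2 levels were 8.73, 9.20 and 8.73 on the WT_DES arrays, against 4.92, 5.22 and 5.11 on the WT_vehicle arrays. The WT_vehicle mean of 5.08 lay below the mean of the background control probe sets in that group (5.31), so the WT_vehicle level was not measured. Against that floor Saa3 was at least 11.96-fold higher in WT_DES. The background probe sets ranged from 2.09 to 9.06 in their own means, which makes the floor a rough one. The liver-type genes Saa1 and Saa2 differed less. Saa1 had 7.78, 8.19 and 8.17 in WT_DES, against 7.08, 7.05 and 7.08 in WT_vehicle, a difference of 0.98 ± 0.13 (SE). Saa2 had 7.43, 7.73 and 7.98 in WT_DES, against 6.98, 7.02 and 6.91 in WT_vehicle, a difference of 0.74 ± 0.12. Shifted to the hybridization controls these differences were 1.34 for Saa1 and 1.10 for Saa2.

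Serpina3n, a secreted inhibitor of serine proteases, had the largest difference of the 9 genes with a measured WT_vehicle level. Its log2 levels were 11.73, 12.45 and 11.67 on the WT_DES arrays, against 7.80, 7.16 and 7.41 on the WT_vehicle arrays. Every WT_DES array was above every WT_vehicle array, with a difference of 4.50 ± 0.20 (SE), or 22.6-fold. Within WT_DES its SD of 0.43 was exceeded by 1.42% of the genes tested. Lcn2, which neutrophils store in granules and inflamed epithelia secrete, had 11.05, 11.51 and 11.36 in WT_DES, against 8.60, 8.76 and 8.91 in WT_vehicle. Its difference was 2.55 ± 0.13, or 5.84-fold, from a WT_vehicle mean of 8.76 that was above the background controls. Cp had 10.08, 10.61 and 10.21 in WT_DES, against 7.95, 7.92 and 7.93 in WT_vehicle, a difference of 2.37 ± 0.12, or 5.15-fold.

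Hp was even within WT_DES and uneven within WT_vehicle. It had 10.33, 10.28 and 10.18 on the WT_DES arrays, against 8.54, 7.57 and 7.85 on the WT_vehicle arrays, a difference of 2.28 ± 0.18 (SE), or 4.85-fold. Its SD was 0.08 in WT_DES, where 74.7% of the genes tested had a larger one, and 0.50 in WT_vehicle, where 0.378% did. The sum of 6 adipocyte markers moved in the same way among the WT_vehicle arrays, at 10.72, 9.47 and 9.90 on arrays 1 to 3 (log2 of the summed linear levels). It was 10.14 to 10.31 in WT_DES. Sums of fibroblast markers (11.51, 11.11 and 11.20) and hepatocyte markers (10.16, 9.16 and 9.32) had the same order of WT_vehicle arrays. So did Serpina3n (7.80, 7.16 and 7.41), while the remaining marker sums had other orders. Of those, the prostate and coagulating gland sum (14.91, 14.40 and 14.38) and the epididymis sum (7.80, 7.79 and 7.71) were also highest on array 1. Adipocytes express Hp, and the part of adipose tissue in the Hp values was not tested. Of the 5 adipocyte markers tested, 0 were called in WT at an adjusted p below 0.05 in limma, with a median difference of -0.01. With the hybridization controls 1 was higher and the median was 0.35.

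**Figure D3:**
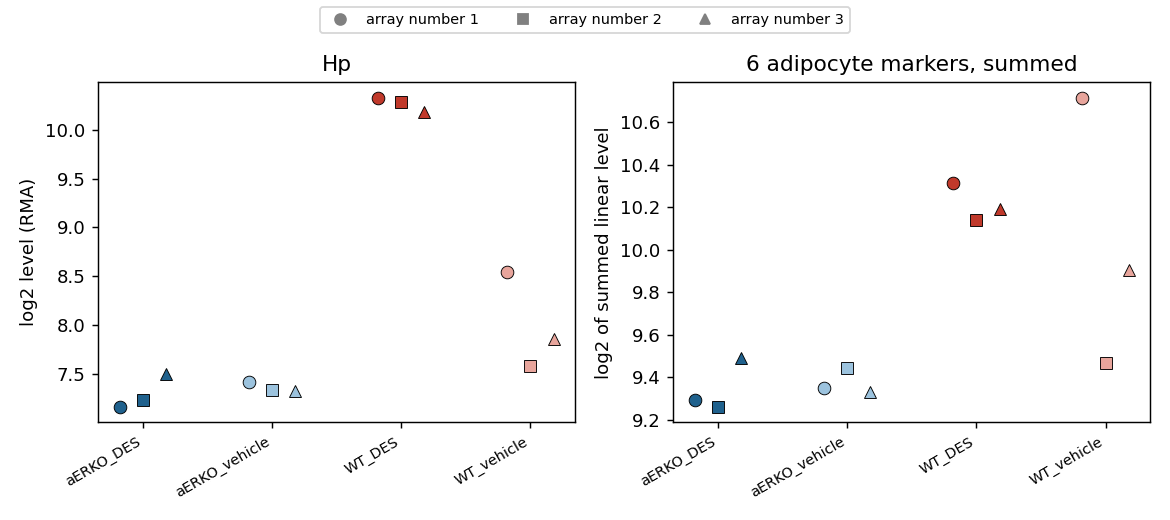
Log2 level of Hp (left) and log2 of the summed linear levels of 6 adipocyte markers (right) on each array of the 4 groups. Symbols give the array number, which is not used to pair arrays across groups. Array 1 of WT_vehicle is the highest of its group in both panels, while the 3 WT_DES arrays lie together.

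In glands without estrogen receptor alpha, DES made no detectable difference to any of the 10 genes. This contrast uses other arrays than those on which the genes were selected. The log2 differences between aERKO_DES and aERKO_vehicle ran from -0.06 to 0.14 with standard errors of 0.12 to 0.29. With the hybridization controls all 10 were positive, from 0.07 to 0.27, beside a median of 0.12 over all genes, and 0 of them were called. limma called 0 of the 10 genes after adjustment over all genes tested (adjusted p = 0.999 for each), and 0 at an unadjusted p below 0.05. The share called among all genes was 0%, with 263 genes at an unadjusted p below 0.05. The groups overlapped for 10 of 10 genes, whereas they did not overlap for 6.12% of all genes.

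Serpina3n had 7.46, 7.17 and 7.43 in aERKO_DES, against 7.22, 7.33 and 7.08 in aERKO_vehicle. Its difference of 0.14 had a 95% interval from -0.28 to 0.57. Saa3 had 5.05, 5.28 and 5.35 in aERKO_DES, against 5.41, 5.09 and 5.25 in aERKO_vehicle, and the means of both groups lay below the background controls. Lcn2 had 8.92, 8.72 and 9.09 in aERKO_DES, against 8.69, 8.83 and 9.04 in aERKO_vehicle, a difference of 0.06 with an interval from -0.24 to 0.35. Hp had 7.16, 7.23 and 7.50 in aERKO_DES, against 7.41, 7.33 and 7.33 in aERKO_vehicle, and Cp had 7.94, 7.79 and 7.72, against 7.83, 8.004 and 7.73. For each of these genes the aERKO_DES arrays lay on both sides of the aERKO_vehicle mean. Orm3 had 11.27, 10.92 and 10.84 in aERKO_DES, against 10.86, 11.08 and 11.06 in aERKO_vehicle. Its difference of 0.01 had an interval from -0.62 to 0.64, the widest of the 10. Saa1 and Saa2 stayed between 6.95 and 7.50 on all 6 aERKO arrays.

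**Figure D4:**
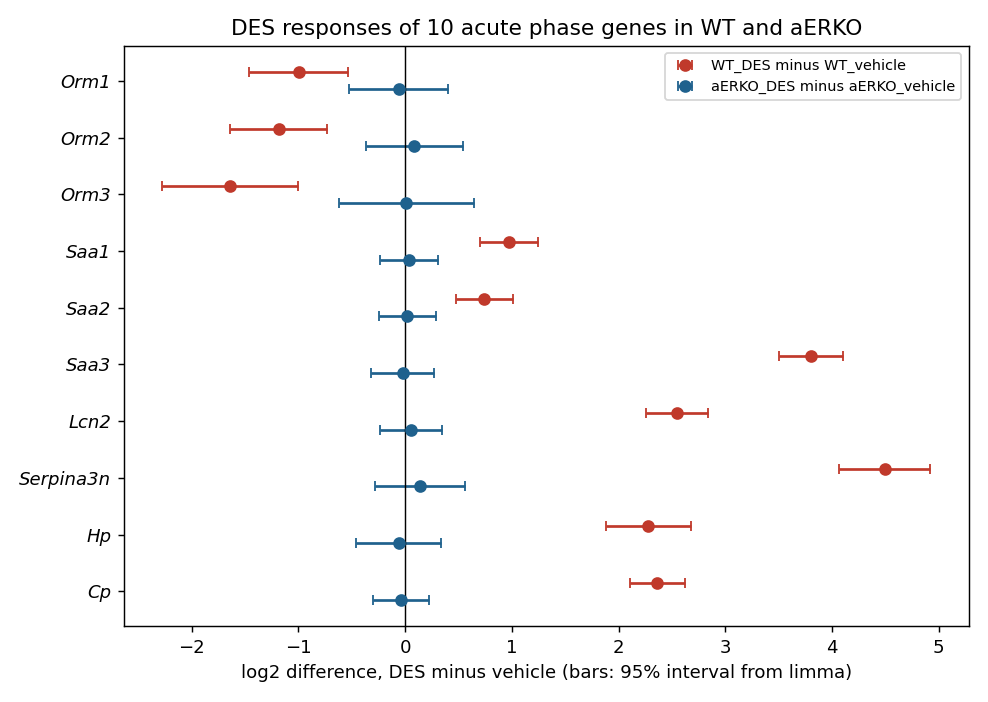
Log2 difference between DES and vehicle (x axis) for the 10 acute phase genes (y axis) in WT and in aERKO, with 95% intervals from limma. The WT values run from -1.64 for Orm3 to 4.50 for Serpina3n, and the aERKO values lie between -0.06 and 0.14. The Saa3 points are fitted values from levels below background in every group but WT_DES.

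Set against each other, the WT response exceeded the aERKO response by 4.35 ± 0.28 log2 units (SE) for Serpina3n. The excess was 2.49 ± 0.19 for Lcn2, 2.40 ± 0.17 for Cp and 2.34 ± 0.26 for Hp. It was 0.94 ± 0.18 for Saa1 and 0.72 ± 0.17 for Saa2. No such value is given for Saa3, which was below background in every group but WT_DES. For the orosomucoid genes the WT response lay below the aERKO response, by -1.65 ± 0.41 for Orm3, -1.27 ± 0.29 for Orm2 and -0.93 ± 0.30 for Orm1. These values contain the contrast the genes were selected on and carry no test. Between the genotypes given DES, Orm3 was higher in aERKO_DES than in WT_DES by 1.86 log2 units, and Serpina3n was lower by 4.60 (-4.60).

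Given vehicle, the genotypes did not differ detectably in any of the 10 genes after adjustment. This comparison shares the WT_vehicle arrays with the WT response. The log2 differences between aERKO_vehicle and WT_vehicle ran from -0.63 for Hp to 0.21 for Orm3. limma called 0 of the 10, against 0.0248% of all genes tested (5 genes). Hp was lower in aERKO_vehicle on every array, at 7.41, 7.33 and 7.33, against 8.54, 7.57 and 7.85 in WT_vehicle. Its difference of -0.63 ± 0.18 (SE) had an unadjusted p of 0.0047 in limma and an adjusted p of 0.740, and it was -0.35 without WT_vehicle array 1. The adipocyte marker sum was 9.33 to 9.44 in aERKO_vehicle, against 9.47 to 10.72 in WT_vehicle, and the median difference of the 5 tested markers was -0.74, with 0 called. Their part in the Hp difference was not tested. The 9 other genes overlapped between the groups, whereas 12.1% of all genes did not. By group mean, each orosomucoid gene was thus lowest in WT_DES of the 4 groups and each of the 7 others highest there. Both tests among the other 3 groups, of DES in aERKO and of genotype given vehicle, passed for 0 of the 10 genes.

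The pathway around these genes was described from 8 lists of other genes, of which 69 were tested. In WT_DES, 39 of the 69 were higher and 10 lower than in WT_vehicle at an adjusted p below 0.05 in limma, with a median difference of 0.40 against -0.05 over all genes. The shares over all genes were those given above, 20.7% higher and 23.3% lower. With the hybridization controls 48 were higher and 0 lower, against 41.5% higher and 1.74% lower over all genes, and with a common median 37 were higher and 14 lower. Of the 69, 7 passed the filter on low values through WT_DES arrays, namely A2m, Il1a, Il1b, Il1rn, Itih4, Ptx3 and Serpina3f, so a difference there was favoured by the filter and no p is given for them. Without these 7, 33 of 62 were higher and 10 lower. Of the 10, Serpina6 passed the filter through arrays outside WT_DES alone. In aERKO, 0 of the 69 were called and 0 had an unadjusted p below 0.05, with differences from -0.23 to 0.18. Between the genotypes given vehicle 0 were called, with 6 at an unadjusted p below 0.05.

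Of 15 other positive acute phase genes, 9 rose in WT_DES and 2 fell, with a median difference of 1.502, or 6 and 2 of the 11 that did not depend on WT_DES to pass the filter. Il1rn, the natural antagonist of the interleukin 1 receptor, was at least 7.54-fold higher, from a WT_vehicle level below the background controls. The complement genes Cfb and C4b rose by 2.79 and 2.45 (adjusted p = 2.48e-08 and 2.42e-08). The broad protease inhibitor gene A2m was at least 4.24-fold higher, also from below background. The metallothionein genes Mt1 and Mt2, chosen for naming after their values were seen, fell by 0.68 and 0.40. With the hybridization controls their differences were -0.32 and -0.05 and neither was called, and 10 of the 15 were higher and 0 lower. Of 5 negative acute phase genes, whose plasma proteins decrease in inflammation, 1 rose and 1 fell. The transferrin gene Trf rose by 1.71 (adjusted p = 9.11e-05 in limma). The corticosteroid-binding globulin gene Serpina6 fell by 0.33 (0.03 with the hybridization controls). Serpina6 was above the array median on 0 WT_DES arrays and on 4 others. A fall was thus favoured by the filter, and no p is given for it. Of the tested relatives of Serpina3n, Serpina3i rose by 0.83, and Serpina3f differed by 1.30 from a level that passed the filter through WT_DES.

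Among 8 tested cytokines of the inducing group 4 rose and 0 fell, with a median of 0.20, or 2 of the 6 without Il1a and Il1b. Higher calls made up 20.7% of all genes. Il1b was higher by 4.85 ± 0.20 (SE) and Il1a at least 5.19-fold higher. Tnf rose by 1.80 (adjusted p = 2.81e-07), and Lif differed by 0.29 (adjusted p = 0.0269). With a common median Lif differed by 0.21 (adjusted p = 0.0754 in limma) and was not called. Il6, the chief inducer in liver, did not pass the filter on low values, so its DES response was not tested. The Il6 mean minus the background control mean of the same group was 0.12 in WT_DES and -1.71 in WT_vehicle. It was -1.57 in aERKO_DES and -1.69 in aERKO_vehicle. Il6 thus read higher in WT_DES, but at levels near or below the floor, and no fold is given. Of 9 cytokine receptors 6 rose and 1 fell, with a median of 0.47. The oncostatin M receptor gene Osmr rose by 2.73 (adjusted p = 5.2e-08), Il17ra by 1.01 and the interleukin 6 receptor gene Il6ra by 0.74. The leukemia inhibitory factor receptor gene Lifr fell by 0.44, and with the hybridization controls 8 were higher and 0 lower.

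Of 10 transcriptional regulators 7 rose and 1 fell, with a median of 0.40. Nfkbiz, an inducible NF-kB cofactor, rose by 1.57 (adjusted p = 1.77e-06), Cebpd by 1.08 (adjusted p = 0.000141) and Stat3 by 0.96 (adjusted p = 9.42e-06). Cebpb differed by 0.23 (adjusted p = 0.0544) and the feedback inhibitor gene Socs3 by 0.21 (adjusted p = 0.115). Hnf4a, a factor of liver and gut epithelium, fell by 0.29, and with the hybridization controls it differed by 0.07, with 9 of the 10 higher and 0 lower. Glucocorticoids raise orosomucoid transcription in liver. Of 7 glucocorticoid-responsive genes 1 rose and 4 fell. Dusp1 rose by 1.06 (adjusted p = 0.00104), and Sgk1, Zbtb16, Klf9 and Per1 fell by 0.47, 0.44, 0.23 and 0.19. With the hybridization controls these 4 differed by -0.12, -0.08, 0.13 and 0.17, with 2 of the 7 higher and 0 lower. Tsc22d3 and Fkbp5, not called as deposited, differed by 0.07 and -0.06, or 0.43 and 0.29 with the hybridization controls. The glucocorticoid receptor gene Nr3c1, among the 10 regulators, rose by 0.33 (adjusted p = 0.0017), or 0.69 with the hybridization controls. The part of glucocorticoids in the orosomucoid values was not tested. Of 13 partners and receptors of the proteins 9 rose and 1 fell, with a median of 0.70. Hmox1, which degrades the heme of hemoglobin, rose by 1.59, the gelatinase gene Mmp9, whose protein binds lipocalin 2, by 1.51 and the endocytic receptor gene Lrp1 by 1.39. The iron exporter gene Slc40a1 rose by 1.22 and the ferroxidase gene Heph, a relative of Cp, fell by 0.60. With the hybridization controls 11 were higher and 0 lower.

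**Figure D5:**
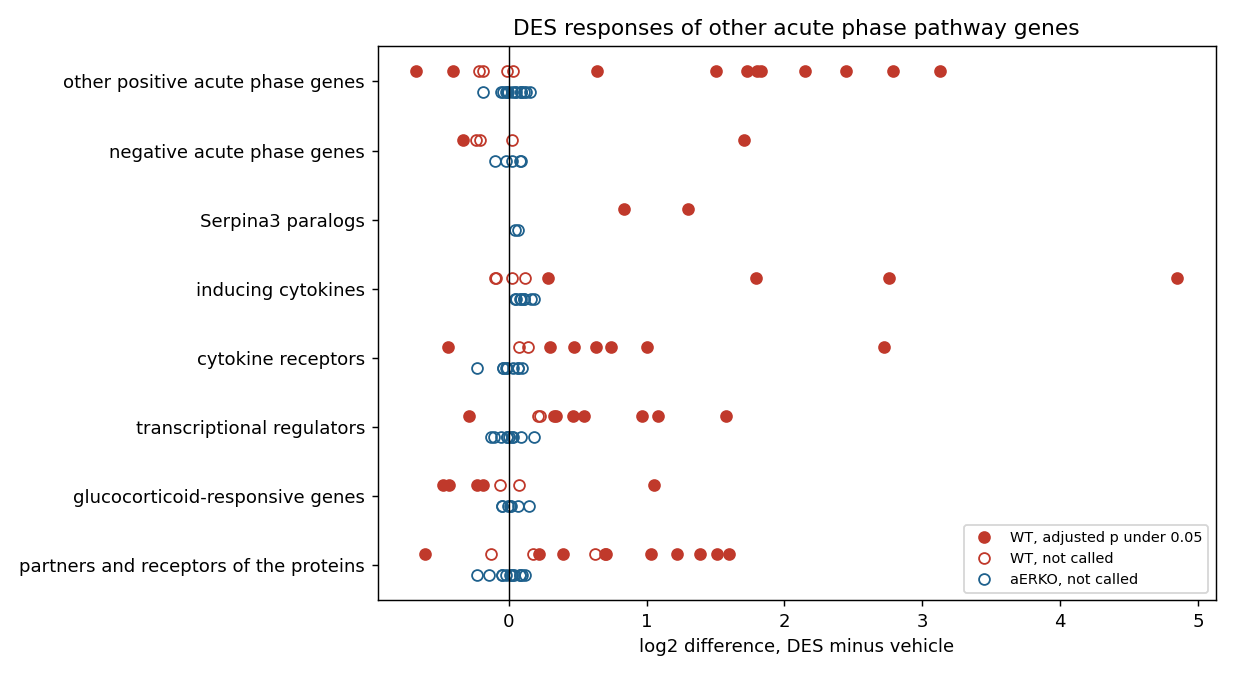
Log2 difference between DES and vehicle (x axis) of each tested gene in 8 lists around the acute phase genes (y axis), in WT and in aERKO. Filled points passed an adjusted p of 0.05 in limma, as did 39 higher and 10 lower genes of 69 in WT and 0 in aERKO.

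Neutrophil, macrophage, fibroblast and basal epithelial markers mostly rose in WT. The other marker lists each held genes that fell or were not called. Over all genes, 20.7% were called higher in WT and 23.3% lower. Of 11 neutrophil markers 8 rose and 0 fell, or 4 of the 7 that did not depend on WT_DES to pass the filter. Camp, Mpo and Elane differed by 0.06, 0.11 and 0.17 and were not called. With the hybridization controls 11 of 11 were higher. The sum of the 11 was 12.29 to 12.95 in WT_DES, against 9.38 to 9.42 in WT_vehicle (log2 of the summed linear levels). It was 9.39 to 9.61 in aERKO_DES and 9.27 to 9.57 in aERKO_vehicle. Such a sum weighs genes by their linear level. S100a9 and S100a8 had the highest WT_DES means of the 11, at 11.26 and 10.38 (log2). In WT_vehicle, S100a8, Retnlg, Ngp and Mmp8, the 4 that depended on WT_DES to pass the filter, lay below the background controls. Of 8 macrophage markers 8 rose, with sums of 13.86 to 14.28 in WT_DES and 10.92 to 11.25 in WT_vehicle. Both sums were highest on WT_DES array 2, at 12.95 for neutrophils and 14.28 for macrophages, the array with the highest Saa3, Lcn2, Serpina3n and Cp. The fibroblast, basal and luminal epithelial sums were also highest of the group on that array, at 13.46, 12.32 and 13.49. Hepatocyte, adipocyte, prostate and epididymis sums were lowest of the group there. The hybridization controls (mean 11.19) and background controls (mean 4.70) read lower on that array than on any other. All 4 tested fibroblast markers rose, with sums of 12.96 to 13.46 in WT_DES and 11.11 to 11.51 in WT_vehicle. The part of these cells in the results was not tested.

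Hepatocyte markers were mixed. Albumin (Alb), the main hepatocyte product, averaged 5.09 in WT_DES and 5.15 in WT_vehicle, within 0.22 of the background controls in each. Of 10 hepatocyte markers 4 passed the filter, 0 rose and 1 fell, Tat by 0.32 (0.04 with the hybridization controls, with which 1 rose and 0 fell). Tat was above the array median on 0 WT_DES arrays and on 7 others, so a fall was favoured by the filter. Lower calls made up 23.3% of all genes, so 1 of 4 was near that share. Cyp2e1, which adipocytes also express, differed by 0.99 ± 0.48 (SE, adjusted p = 0.109). The 10 summed to 9.59 to 10.03 in WT_DES and 9.16 to 10.16 in WT_vehicle. Of 4 basal epithelial markers 4 rose, with sums of 11.96 to 12.32 in WT_DES and 10.51 to 10.55 in WT_vehicle. Of 6 luminal epithelial markers 4 rose and 2 fell, neither of the 2 being called with the hybridization controls, and the sums were 13.41 to 13.49 in WT_DES and 13.23 to 13.28 in WT_vehicle. Of 7 seminal vesicle secretory markers 4 fell, against 0 with the hybridization controls, with sums of 16.40 to 16.60 in WT_DES and 16.66 to 16.73 in WT_vehicle. Several of these markers read near the top of the scale. Svs5 averaged 14.11 in WT_DES and 14.12 in WT_vehicle, and the largest value of any probe set was 14.54. Such values may understate a loss. Of 4 prostate and coagulating gland markers 3 fell (1 with the hybridization controls), and of 2 tested epididymis markers 0 were called.

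The genes with the profiles nearest to each member were found by the root mean square difference between mean-centred log2 levels over the 12 arrays. For Orm3 they were Slc26a3, a chloride and bicarbonate exchanger gene (0.17), Derl3, which acts in disposal of misfolded secretory proteins (0.20), and Shisa4 (0.21). These 3 differed by -1.79, -1.54 and -1.46 in WT. The nearest to Orm1 were Tom1l1, the peptidase gene Dpp4 and the lipid phosphatase gene Plpp1 (each 0.10), and to Orm2 the peroxisomal enzyme gene Phyh, the disulfide oxidase gene Ero1b and Tom1l1 (0.11, 0.12 and 0.12). For Serpina3n they were Il1b (0.20), the cornified-envelope gene Sprr2f (0.25) and the lysozyme gene Lyz2 (0.25). Saa3 was nearest to Clca3b (0.13), the chemokine gene Ccl8 (0.16) and Acod1 (0.19), the itaconate-forming enzyme gene of activated macrophages. Lcn2 was nearest to Cd48, Ly6c2 and Gbp9 (0.11, 0.12 and 0.13), and Cp to Dock11, Lgmn and Nckap1l (0.07, 0.11 and 0.11). Hp was nearest to the cytochrome P450 gene Cyp2f2, Anpep and Emb (0.23, 0.26 and 0.26). Saa1 was nearest to Apol7c, Cst7 and the chemokine gene Ccl19 (0.08, 0.08 and 0.09), and Saa2 to Fcrla, Treml2 and Slamf1 (0.07, 0.09 and 0.09). By this measure genes with small changes lie near many others.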

How the data were processed

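RNA of 12 seminal vesicle samples was measured on Affymetrix arrays, grouped and numbered as in the sample titles. Trizol RNA, 300 ng per sample, was amplified and biotin-labelled, per the labels' protocols. The deposited values are log2 levels per probe set from RMA (Affymetrix Expression Console), which the authors ran, per the submitters' processing notes. Tool versions and settings were not given there. RMA equalizes arrays, so a broad change can push unchanged genes the other way.

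Of 72688 probe sets, 186 were array controls, 30604 had 1 gene symbol, 2146 several and 39752 none. Symbols were updated for 825 through the GRCm38.p6 gene table. A gene with several probe sets (355 genes) was represented by the one with the highest mean. Genes above the array median on at least 3 of 12 arrays were tested (20130 of 30142). The lmFit and eBayes steps of limma 3.58.1 (R 4.3.3) fitted a mean per group over all 12 arrays, with two-sided tests, Benjamini-Hochberg adjustment over all genes tested and a threshold of 0.05. Residual degrees of freedom were 8 and prior ones 4.33, and the scripts were tested on simulated data. With 3 arrays per group the smallest p of an exact permutation test is 0.1, so none was run. A group mean at or below the mean of the 23 background control probe sets in that group was called not above background, and folds against it are given as at least that size. The number of arrays limits the precision.

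The members and lists were chosen with earlier results of these data known. The text names the members, the 3 nearest genes of each, up to 4 called genes per list with the largest differences, and exceptions that are given as such. Of the list genes named, Lifr, Hnf4a, Heph, Per1, Tsc22d3, Fkbp5, Nr3c1, Cebpb, Socs3 and Il6 were chosen after their values were seen. So were Camp, Mpo, Elane, Msmb and Svs5. They are given to account for a count, a role or a limit. Alternatives were no filter, a stricter filter (14401 genes), the mean of a gene's probe sets, every probe set, robust moderation with a trend, a fit of the compared groups alone, quantile normalization, shifts to a common median or to 4 hybridization controls, the replicate number as a block, and each array left out in turn. Promoter windows and their identities were handled with Biopython 1.88.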

Additional observations from a re-analysis of the deposited data

Results flagged for a closer look

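Cebpd, which encodes the transcription factor C/EBP delta, had a log2 difference between DES and vehicle of 1.08 in WT and of -0.13 in aERKO. Every WT_DES array lay above the WT_vehicle mean and every aERKO_DES array below the aERKO_vehicle mean, which is why the gene is listed here. The aERKO value had an SE of 0.15 and an adjusted p of 0.999 in limma, so no change was shown in aERKO, and it was 0.0020 with the hybridization controls. Il17ra, the gene of an interleukin 17 receptor subunit, met the same condition, with a difference of 1.01 in WT and -0.013 ± 0.09 (SE, adjusted p = 0.999 in limma) in aERKO, or 0.12 with the hybridization controls. The WT response exceeded the aERKO response by 1.21 ± 0.22 log2 units (SE) for Cebpd and by 1.02 ± 0.13 for Il17ra. Because the genes were listed for such a difference, these values carry no test. Groups of 3 arrays were too small for a check of single arrays that stand apart.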

How the results depend on the processing

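Under 22 other settings limma called 0 of the 10 acute phase genes for the DES response in aERKO and 0 for the genotype difference given vehicle. The same 7 and 3 genes kept their directions in WT under all of them. Over all genes, the DES response in aERKO gave 0 calls, against 1 with every probe set tested and 0 to 1 when 1 array was left out. The genotype difference given vehicle gave 5 calls, against 8 with only the groups compared, 14 with the shift to the hybridization controls and 0 to 6 when 1 array was left out. The difference of the responses needs all 4 groups, so a fit with only the groups compared was the same as that given. The WT split into higher and lower calls depended on scaling, with 4158 higher and 4684 lower as deposited, 8351 and 350 with the hybridization controls, 3407 and 7123 with a common median and 3702 and 5682 with quantile normalization. Calls in WT numbered 8842, and 6478 to 9868 when 1 array was left out. The hybridization controls turned the WT direction of Klf9 (0.13), Tat (0.0404), Serpina6 (0.0278), Svs2 (0.000258), Svs6 (0.10), Pate4 (0.12), Per1 (0.17), Hnf4a (0.07) and Krt18 (0.06), the 9 called list genes that changed sign, because that shift raises every WT_DES value. It also moved Saa1 to 1.34, Saa2 to 1.10, Lcn2 to 2.90 and Cp to 2.72. With the replicate number as a block, WT gave 10002 calls, aERKO 0 and the genotype difference 4. Same-numbered arrays deviated together with correlations of -0.36 to 0.52, and 2 of 9 exceeded 0.1, both in aERKO (0.19 and 0.52). A general pairing by number was not seen, but with 3 arrays per group these correlations cannot exclude a shared origin. The low levels of Saa3 outside WT_DES limit its fold to a lower bound.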
